A study of Rattus norvegicus with 20 samples.

Results

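The 10 genes described here encode plasma proteins that the liver secretes in the acute phase response, or proteins known from neutrophils and epithelial defence. The plasma protein genes are Orm1, Crp, Cp, Hp, Fgb and A2m, and the others, called neutrophil-associated genes here, are Lcn2, Wfdc21, S100a8 and S100a9. That name serves to group them and does not say which cells of the liver made their RNA. Each gene was found by the annotation of its probe sets, and all 10 were measured among the 14217 genes analysed, by 14 probe sets in all. The study profiled the liver of 20 male rats of the Harlan Sprague-Dawley strain on 1-colour Affymetrix arrays, with 1 array per rat. Tricresyl phosphate (TCP), an organophosphate that serves as flame retardant and as additive in plastics and lubricants, was given once a day by oral gavage in corn oil, 4 times in all, and livers were taken on day 5. The control group received corn oil alone (n = 5), and the treated groups received 62.3, 124.5, 248.6, 497.3 or 994.6 mg/kg body weight (n = 3 each). The lowest dose corresponds to 0.169 mmol/kg and the highest to 2.7 mmol/kg. All groups thus shared the strain, sex, vehicle and route. For their age nothing is given in the sources used here. RNA was extracted from small cubes of the left lobe and therefore stems from every cell type in them, including blood left in the tissue. In such bulk samples, a change in the number of cells of a type and a change in RNA per cell cannot be told apart.

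In the acute phase response, interleukin-6 and interleukin-1 from activated macrophages act on hepatocytes through STAT3, C/EBP factors and NF-kB, and change which plasma proteins the liver makes. Orm1 encodes orosomucoid (alpha-1-acid glycoprotein), a carrier of basic drugs and a classic acute phase protein of the rat. A2m encodes alpha-2-macroglobulin, a broad protease inhibitor that is among the most inducible acute phase proteins of rats and depends on interleukin-6 and glucocorticoid. Crp encodes the pentraxin C-reactive protein, which is abundant in healthy rat plasma. Hp encodes the haemoglobin binder haptoglobin, Cp the copper ferroxidase ceruloplasmin and Fgb the beta chain of fibrinogen. S100a8 and S100a9 together form calprotectin, which fills the neutrophil cytosol. Lcn2 encodes lipocalin 2, an iron siderophore binder of neutrophil granules that stressed hepatocytes also secrete, and Wfdc21 a small secreted protein with a whey acidic protein domain.

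The promoters of 7 of the 10 genes had a sequence in RefSeq for GRCr8, from 250 bases before to 50 bases after the gene's start. That of Orm1 is shown because its level followed dose, and that of Lcn2 because 1 rat carried its average at 994.6 mg/kg. Those of S100a9 and Fgb are shown because they deviated between rats with A2m and with S100a8. The sequences run 5′ to 3′ on the strand of the gene, and capitals mark the matches to 4 motifs searched on both strands.
Orm1 promoter, chr5:81788259-81788558, plus strand: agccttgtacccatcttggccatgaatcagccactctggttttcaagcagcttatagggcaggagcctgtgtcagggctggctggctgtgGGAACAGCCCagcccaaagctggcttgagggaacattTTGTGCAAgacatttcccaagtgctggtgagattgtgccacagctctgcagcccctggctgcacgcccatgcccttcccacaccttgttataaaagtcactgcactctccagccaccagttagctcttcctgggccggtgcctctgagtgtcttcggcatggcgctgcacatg
Lcn2 promoter, chr3:36081731-36082030, minus strand: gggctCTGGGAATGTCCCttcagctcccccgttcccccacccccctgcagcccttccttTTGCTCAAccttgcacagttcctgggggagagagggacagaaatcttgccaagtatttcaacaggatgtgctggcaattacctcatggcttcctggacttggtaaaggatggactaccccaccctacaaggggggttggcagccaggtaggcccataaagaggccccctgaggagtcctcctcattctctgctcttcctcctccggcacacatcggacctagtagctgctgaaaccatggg
Fgb promoter, chr2:170700826-170701125, minus strand: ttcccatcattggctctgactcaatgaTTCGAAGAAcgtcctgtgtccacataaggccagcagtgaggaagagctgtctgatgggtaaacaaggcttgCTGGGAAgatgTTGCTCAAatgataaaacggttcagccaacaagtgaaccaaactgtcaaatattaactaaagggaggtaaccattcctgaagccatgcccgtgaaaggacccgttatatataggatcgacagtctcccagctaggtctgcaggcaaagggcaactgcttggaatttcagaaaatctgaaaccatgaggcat
S100a9 promoter, chr2:178490573-178490872, minus strand: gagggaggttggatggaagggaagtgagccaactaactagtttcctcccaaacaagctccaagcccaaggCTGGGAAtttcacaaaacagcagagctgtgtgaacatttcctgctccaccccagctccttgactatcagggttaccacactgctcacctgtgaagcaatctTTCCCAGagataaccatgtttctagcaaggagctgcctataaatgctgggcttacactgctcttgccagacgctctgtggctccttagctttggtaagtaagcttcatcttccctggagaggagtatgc
The motifs were TTCNNNGAA, bound by STAT factors, CTGGGAA, known from interleukin-6 response elements, TTNNGCAA, bound by C/EBP factors, and the NF-kB motif GGG, any 3 bases and TTCC. The Orm1 promoter held the C/EBP match TTGTGCAA at position -123 from the start and the reverse NF-kB match GGAACAGCCC at -160. The Lcn2 promoter held CTGGGAA at -245, which overlaps the reverse NF-kB match GGAATGTCCC at -242, and the reverse C/EBP match TTGCTCAA at -191. The Fgb promoter was the 1 member with the STAT motif, TTCGAAGAA at -223, and also held CTGGGAA at -152 and TTGCTCAA at -141. The S100a9 promoter held CTGGGAA at -180 and its reverse complement TTCCCAG at -79. Of the others, Cp held TTGTGCAA at -72, and the windows of Crp and Wfdc21 held none of the 4 motifs. Over 33469 rat promoters of the same length, TTCNNNGAA occurred in 8.87%, CTGGGAA in 11.3%, TTNNGCAA in 10.6% and the NF-kB motif in 5.37%. Among the 7 member promoters the motifs occurred in 1, 3, 4 and 2, in the same order. A match is a description of letters and not of binding.

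Values are log2 expression values, so a difference of 1 is a 2-fold difference, and they ran from 2.74 to 15.4 over the whole table. The defining transcripts of liver were abundant in every array: albumin (Alb) lay between 15.3 and 15.4, transthyretin (Ttr) between 14.7 and 14.9 and Apoa1 between 13.8 and 14.3 in the 20 arrays. Replicate 1 of 994.6 mg/kg stood apart on the first principal component of all genes (37.1, against -14.1 to 9.14 in the other 19 arrays), so results at this dose are given with and without it. For GAPDH, a control transcript, the 3' minus the 5' probe set gives a measure of RNA integrity and labelling, which was 0.612 to 0.836 at 994.6 mg/kg and 0.705 to 0.896 at 497.3 mg/kg, against 1.13 to 1.56 in control. In the lower dose groups it was 0.755 to 1.11 apart from 1 array of 124.5 mg/kg at 2.58. Apart from that array, every treated array lay below every control. This measure and treatment can thus hardly be told apart, also by a fit with it as a covariate. Such a fit is named where it ends a call. A gene was called where limma's adjusted p was under 0.05 over all 14217 genes.

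At 994.6 mg/kg the acute phase genes moved unevenly. Orm1, Crp, Cp and Wfdc21 rose relative to control, by 2.24-fold, 1.76-fold, 1.19-fold and 3.47-fold. Hp, Fgb, A2m, Lcn2, S100a8 and S100a9 were not called. The 4 of 10 genes called, all higher, compare with 635 of all 14217 genes called (4.47%), 356 higher (2.5%) and 279 lower (1.96%). In 5 of the 10 genes, Orm1, Crp, Cp, Hp and Wfdc21, the 3 arrays of this dose lay above all 5 controls, as did those of 983 genes in the table (6.91%). Without replicate 1 of this dose, Orm1 was the 1 member still called.

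**Figure D1:**
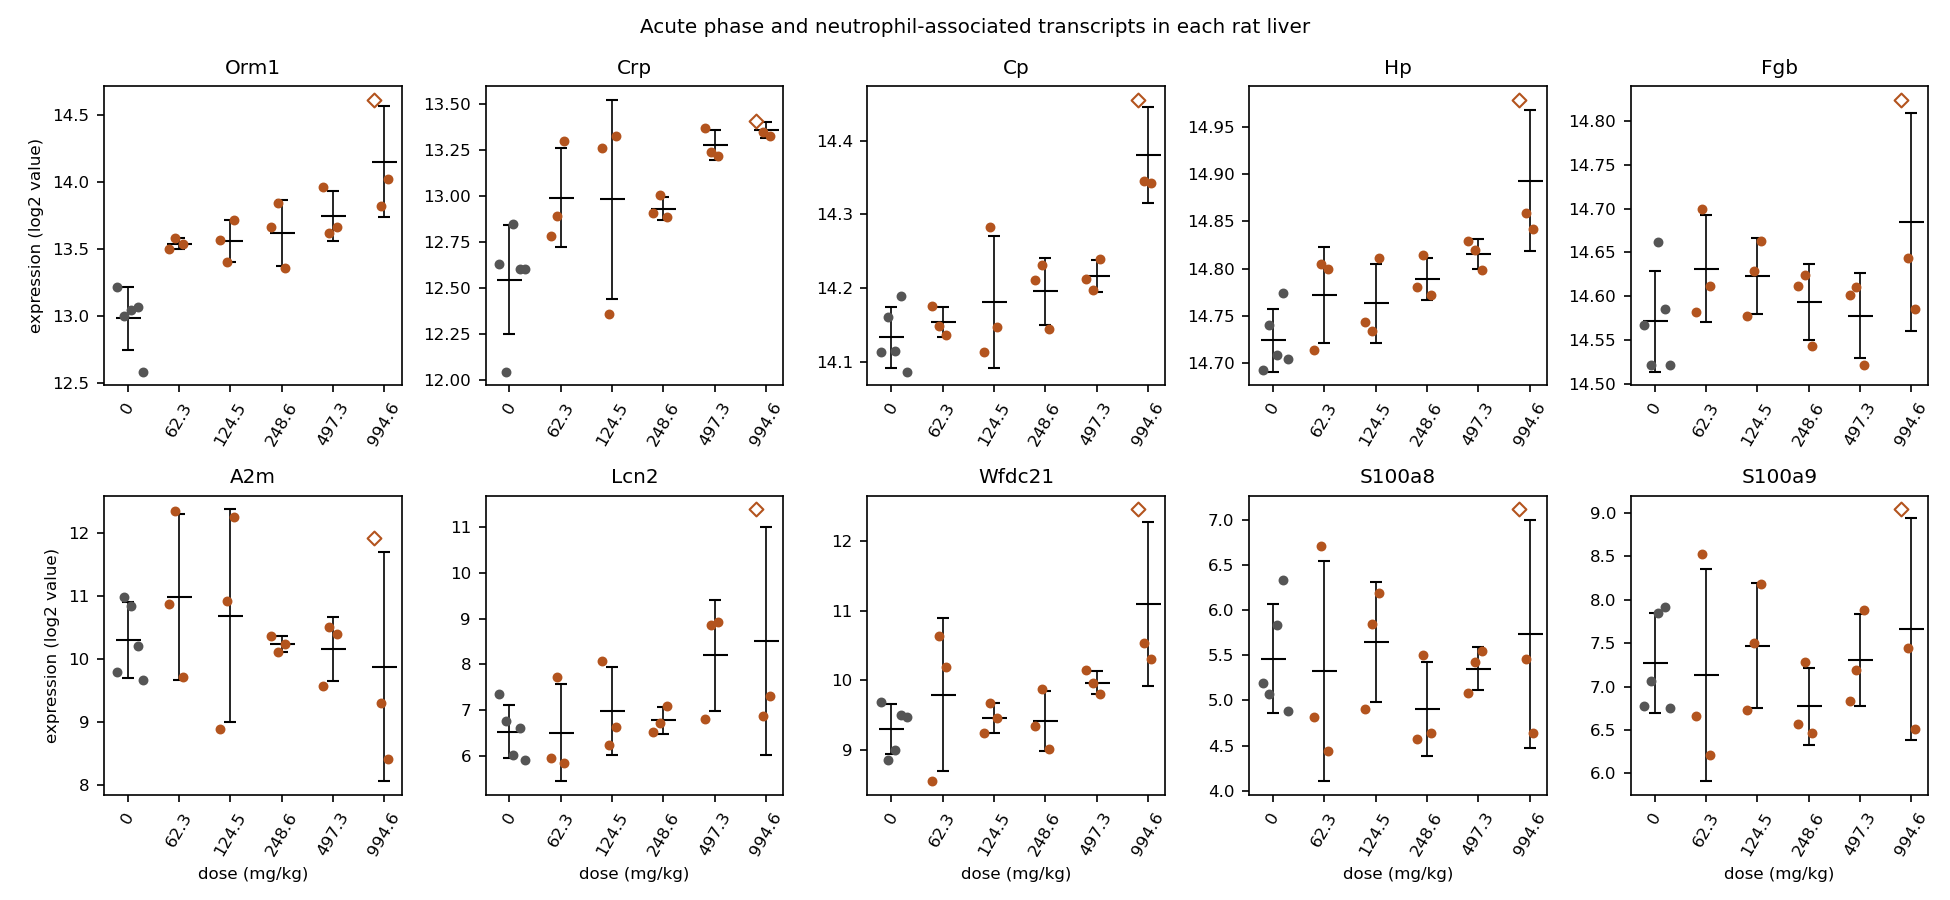
Log2 expression of the 10 genes in each of the 20 livers, by dose in mg/kg (control at 0), with group means and SD as bars and replicate 1 of 994.6 mg/kg as an open diamond. All 15 treated rats lay above all 5 controls for Orm1, and the diamond is the highest point in every panel except that of A2m.

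Orm1 was higher in every treated group, and its group mean rose with each dose step. In control it measured 13.22, 13.001, 13.05, 13.07 and 12.59, and at 62.3 mg/kg 13.50, 13.58 and 13.54. It measured 13.57, 13.41 and 13.72 at 124.5 mg/kg, and 13.67, 13.85 and 13.36 at 248.6 mg/kg. At 497.3 mg/kg it measured 13.96, 13.62 and 13.66, and at 994.6 mg/kg 14.61, 13.82 and 14.02. Every treated rat lay above every control rat, and neighbouring treated groups overlapped each other. Such a separation of all 15 treated from all 5 control arrays occurred in 10 of 14217 genes (0.0703%), and Orm1 was the 1 member among them.

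The change of Orm1 was 1.17 ± 0.16 (log2, limma's SE) at 994.6 mg/kg, with a 95% interval of 0.83 to 1.5 and an adjusted p of 0.000361. Without replicate 1 it was 0.93 ± 0.15 (1.91-fold, adjusted p = 0.00286). Orm1 also rose at 497.3 mg/kg, by 0.76 ± 0.16 (1.70-fold, adjusted p = 0.0327). That was the 1 member called of 10, against 104 genes (0.732%), 73 of them higher (0.513%) and 31 lower (0.218%). The call at 497.3 mg/kg ended with the GAPDH covariate (adjusted p = 0.0819) and without any 1 of 7 of the 8 arrays compared (adjusted p = 0.0522 to 0.159), the exception being control replicate 1. The call at 994.6 mg/kg held in all 11 other settings and with each of the 8 arrays left out, with changes of 0.88 to 1.33.

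At the 3 lower doses Orm1 stood 0.56, 0.58 and 0.64 above control on average (62.3, 124.5 and 248.6 mg/kg), with an SE of 0.16 each. None of these was called, with limma's adjusted p at 0.9996, 0.939 and 0.392. At 248.6 mg/kg 0 of the 10 members were called, against 8 of all genes (0.0563%), and 1 member had an unadjusted p under 0.05, as did 6.65% of all genes. At 124.5 mg/kg 0 members were called, against 1 gene (0.00703%), with 2 members and 5.04% of all genes at an unadjusted p under 0.05. At 62.3 mg/kg limma called 0 members and 0 genes (0%), with 2 members and 349 genes (2.45%) at an unadjusted p under 0.05. These members were Orm1 and, at the 2 lowest doses, Crp.

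Between the 2 highest doses, 994.6 against 497.3 mg/kg, limma called 0 of the 10 members and 3 of all genes (0.0211%), with 3 members and 7.61% of all genes at an unadjusted p under 0.05. Orm1 differed by 0.40 ± 0.18 (adjusted p = 0.626), Wfdc21 by 1.13 ± 0.47 (adjusted p = 0.585) and Cp by 0.17 ± 0.07 (adjusted p = 0.587). No member's difference between these doses passed the test.

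Over all 6 groups, the slope over dose steps (log2 per step, numbered 0 for control to 5 for 994.6 mg/kg) was called in 3 of 10 members, all upward. The table as a whole had 920 such genes (6.47%), 554 upward (3.9%) and 366 downward (2.57%). Orm1 rose by 0.20 ± 0.03 per step (adjusted p = 0.000449), Crp by 0.15 ± 0.03 (adjusted p = 0.00652) and Cp by 0.04 ± 0.01 (adjusted p = 0.0257). Lcn2 (0.40 ± 0.13), Wfdc21 (0.26 ± 0.08) and Hp (0.03 ± 0.01) had adjusted p of 0.0628, 0.0518 and 0.0683, and were called in 1, 5 and 4 of the 10 other settings. The slopes of Fgb (0.01), A2m (-0.11), S100a8 (0.01) and S100a9 (0.04) had adjusted p of 0.608 to 0.960. Without replicate 1 of 994.6 mg/kg, the slopes of Orm1 (0.17, adjusted p = 0.00104) and Crp (0.15, adjusted p = 0.0171) were still called and that of Cp (0.03, adjusted p = 0.0888) was not. The trend of Crp ended with the GAPDH covariate (0.09, adjusted p = 0.0539) and that of Cp with the mean of its probe sets (0.01, adjusted p = 0.565), without control replicate 5 and without replicate 2 or 3 of 994.6 mg/kg (adjusted p = 0.0530 to 0.0601).

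Crp averaged above control at every dose, by 0.45, 0.44, 0.39, 0.73 and 0.82 on the log2 scale in order of dose. In control it measured 12.63, 12.04, 12.85, 12.60 and 12.60, and at 62.3 mg/kg 12.78, 12.89 and 13.30. It measured 13.26, 12.36 and 13.33 at 124.5 mg/kg, and 12.91, 13.004 and 12.88 at 248.6 mg/kg. At 497.3 mg/kg it measured 13.37, 13.24 and 13.22, and at 994.6 mg/kg 13.41, 13.35 and 13.33. Of the 15 treated rats 13 lay above all controls, and the 3 rats of the highest dose lay close together (SD 0.04, against 0.30 in control). In 5 members (Orm1, Crp, Cp, Hp and Wfdc21) all 3 arrays of 497.3 mg/kg also lay above all controls, as they did in 812 genes of the table (5.71%).

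The change of Crp was 0.82 ± 0.19 at 994.6 mg/kg (95% interval 0.43 to 1.21, adjusted p = 0.0167) and 0.73 ± 0.19 at 497.3 mg/kg (adjusted p = 0.0814). Without replicate 1 of 994.6 mg/kg its size hardly moved (0.79 ± 0.22) and the adjusted p was 0.0872, in a fit in which 173 genes were called instead of 635. With the GAPDH covariate it was 0.48 (adjusted p = 0.0834). Between the highest doses Crp differed by 0.08 ± 0.21 (adjusted p = 0.953, 95% interval -0.35 to 0.52).

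Ceruloplasmin was measured by 3 probe sets, and they did not move together. The probe set with the highest mean, 1368420_at, which represents Cp in the counts above, measured 14.46, 14.35 and 14.34 at 994.6 mg/kg, against 14.11, 14.16, 14.11, 14.19 and 14.09 in control. Its groups did not overlap, and the change was 0.25 ± 0.06 (95% interval 0.12 to 0.38, adjusted p = 0.0280). Without replicate 1 it was 0.21 ± 0.07 (adjusted p = 0.181), and the call also ended without control replicate 1, 3 or 5, with only these groups fitted (adjusted p = 0.0809) and with the mean of the 3 probe sets (0.11, adjusted p = 0.401).

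The second Cp probe set, 1368418_a_at, measured 14.27, 14.01 and 13.98 at 994.6 mg/kg, against 13.64, 13.58, 13.67, 13.59 and 13.56 in control. It rose by 0.48 ± 0.08 (adjusted p = 0.00191 over all probe sets) and lay above all controls in all 3 rats at 62.3 and at 497.3 mg/kg as well. The third, 1368419_at, measured 9.56, 9.40 and 9.37 at 994.6 mg/kg, against 9.73, 9.93, 9.96, 9.78 and 9.77 in control. Its change of -0.39 ± 0.11 was not called (adjusted p = 0.0761), while its slope of -0.07 ± 0.02 per dose step was called (adjusted p = 0.0212). The slopes of the other Cp probe sets were 0.07 (adjusted p = 0.00488) and 0.04 (adjusted p = 0.0376). Which transcript of Cp each probe set measures was not examined.

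**Figure D2:**
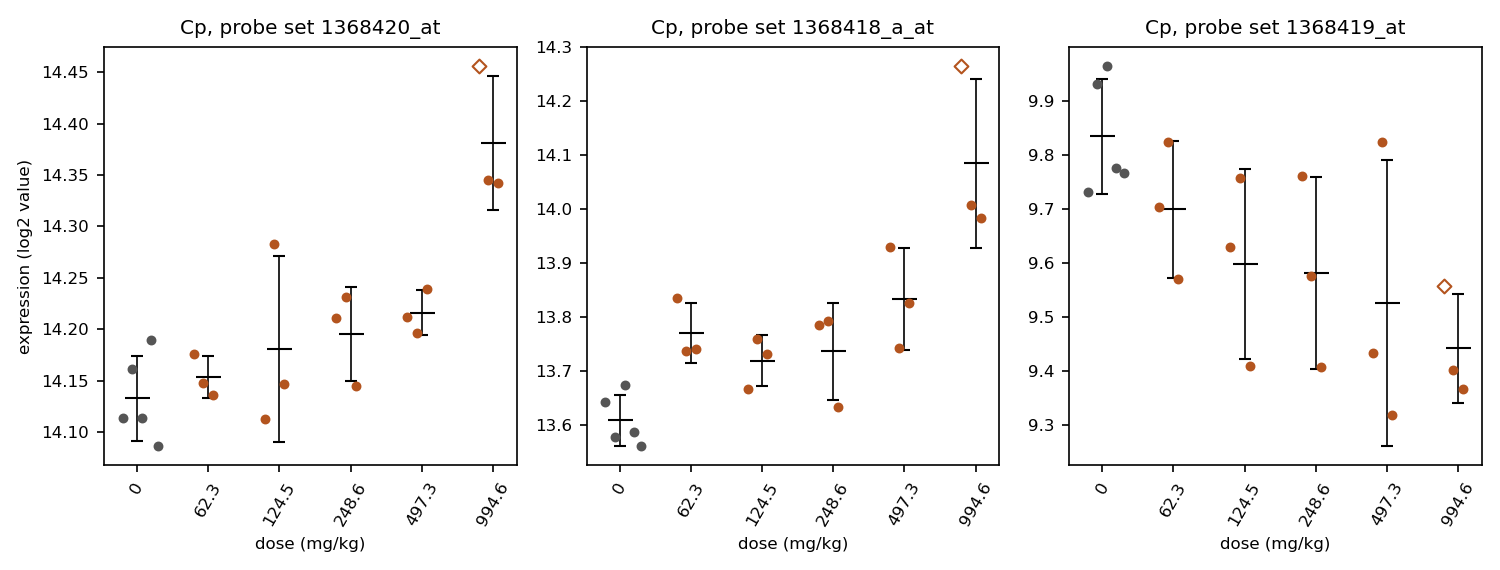
Log2 expression of ceruloplasmin by each of its 3 probe sets in the 20 livers, by dose in mg/kg (control at 0), with group means and SD as bars and replicate 1 of 994.6 mg/kg as an open diamond. The first and second probe sets lie higher at 994.6 mg/kg than in control, while all 3 rats of that dose lie below all 5 controls for the third.

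Haptoglobin varied little. Hp measured 14.98, 14.86 and 14.84 at 994.6 mg/kg and 14.83, 14.82 and 14.80 at 497.3 mg/kg, against 14.69, 14.74, 14.71, 14.77 and 14.70 in control. Both doses lay wholly above control, and 11 of the 15 treated rats did. The difference at 994.6 mg/kg was 0.17 ± 0.06 (adjusted p = 0.115, 95% interval 0.04 to 0.29), and it was called when limma's prior variance was fitted with a trend and robustly (adjusted p = 0.0153) and with array weights (0.14, adjusted p = 0.0176). Fibrinogen beta measured 14.82, 14.64 and 14.59 at 994.6 mg/kg, against 14.57, 14.52, 14.66, 14.59 and 14.52 in control. These groups overlapped, and Fgb differed by 0.11 ± 0.07 (adjusted p = 0.405) and by 0.04 without replicate 1 (adjusted p = 0.894). The other Fgb probe sets were not called in any comparison. The 20 arrays spanned 0.37 for Cp, 0.29 for Hp and 0.30 for Fgb, on probe sets that lay close to the highest value of the table. Whether signal near that limit narrows their differences was not tested.

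A2m had the widest spread between rats among the plasma proteins, and its slope over dose was not called. Its treated group means were 10.98, 10.69, 10.24, 10.16 and 9.88 in order of dose, beside 10.30 in control. It measured 9.79, 10.99, 10.85, 10.21 and 9.66 in control, 10.88, 12.35 and 9.72 at 62.3 mg/kg, and 8.90, 10.92 and 12.25 at 124.5 mg/kg. It measured 10.36, 10.11 and 10.23 at 248.6 mg/kg, 9.58, 10.51 and 10.40 at 497.3 mg/kg, and 11.92, 9.30 and 8.42 at 994.6 mg/kg. Single rats of 3 dose groups were the highest, 3 treated rats lay above all controls and 4 lay below them. The difference at 994.6 mg/kg was -0.42 ± 0.71 (95% interval -1.92 to 1.07, adjusted p = 0.819), and -1.44 ± 0.67 without replicate 1 (adjusted p = 0.398). An interval of this width does not show that A2m was alike in both groups.

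All 4 neutrophil-associated genes had their highest group mean at 994.6 mg/kg, and none of their slopes over dose was called. Lcn2 measured 7.35, 6.75, 6.02, 6.62 and 5.91 in control, 5.95, 7.73 and 5.83 at 62.3 mg/kg, and 8.07, 6.23 and 6.64 at 124.5 mg/kg. It measured 6.52, 6.71 and 7.09 at 248.6 mg/kg, 6.80, 8.85 and 8.93 at 497.3 mg/kg, and 11.38, 6.86 and 7.30 at 994.6 mg/kg. Of the 15 treated rats 5 lay above all controls. At the highest dose 1 rat carried the average of 8.51, since the other 2 lay within the control range and below the average of 8.19 at 497.3 mg/kg.

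The difference of Lcn2 was 1.98 ± 0.77 at 994.6 mg/kg (3.96-fold, adjusted p = 0.161, 95% interval 0.36 to 3.61) and 0.55 ± 0.58 without replicate 1 (adjusted p = 0.815). It was 1.66 ± 0.77 at 497.3 mg/kg (3.17-fold, adjusted p = 0.393), with 2 of 3 rats above all controls. Its slope was called on a linear dose scale (adjusted p = 0.0496) and without replicate 2 of 994.6 mg/kg (adjusted p = 0.0390).

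Wfdc21 measured 9.68, 8.86, 9.0, 9.51 and 9.47 in control, 8.55, 10.64 and 10.19 at 62.3 mg/kg, and 9.25, 9.67 and 9.45 at 124.5 mg/kg. It measured 9.34, 9.87 and 9.02 at 248.6 mg/kg, 10.14, 9.96 and 9.80 at 497.3 mg/kg, and 12.45, 10.53 and 10.31 at 994.6 mg/kg. All 6 rats of the highest 2 doses, 2 rats of 62.3 mg/kg and 1 rat of 248.6 mg/kg lay above all controls. The change was 1.79 ± 0.42 at 994.6 mg/kg (95% interval 0.91 to 2.68, adjusted p = 0.0204) and 0.67 ± 0.42 at 497.3 mg/kg (adjusted p = 0.575). Without replicate 1 of the highest dose it was 1.12 ± 0.37 (adjusted p = 0.182), and with the GAPDH covariate it was 1.81 (adjusted p = 0.0564). The remaining replicates of 994.6 mg/kg, at 10.53 and 10.31, still lay above all controls.

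S100a8 measured 7.12, 5.46 and 4.64 at 994.6 mg/kg, against 5.19, 5.07, 5.84, 6.33 and 4.89 in control. Its mean over the 20 arrays was 5.41, below the array medians of 6.31 to 6.41. S100a9 measured 9.04, 7.44 and 6.51 at 994.6 mg/kg, against 6.78, 7.07, 7.85, 7.92 and 6.75 in control. For both genes the 3 rats of this dose spanned the whole control range and beyond it. S100a8 differed by 0.28 ± 0.51 (95% interval -0.80 to 1.35, adjusted p = 0.838) and S100a9 by 0.39 ± 0.52 (95% interval -0.71 to 1.49, adjusted p = 0.768). Without replicate 1 both differences were negative, at -0.41 ± 0.50 and -0.30 ± 0.52, and neither was called (adjusted p = 0.845 and 0.901). At the lower doses S100a8 ranged from 4.44 to 6.71 and S100a9 from 6.21 to 8.52, with the highest value of each in replicate 2 of 62.3 mg/kg.

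**Figure D3:**
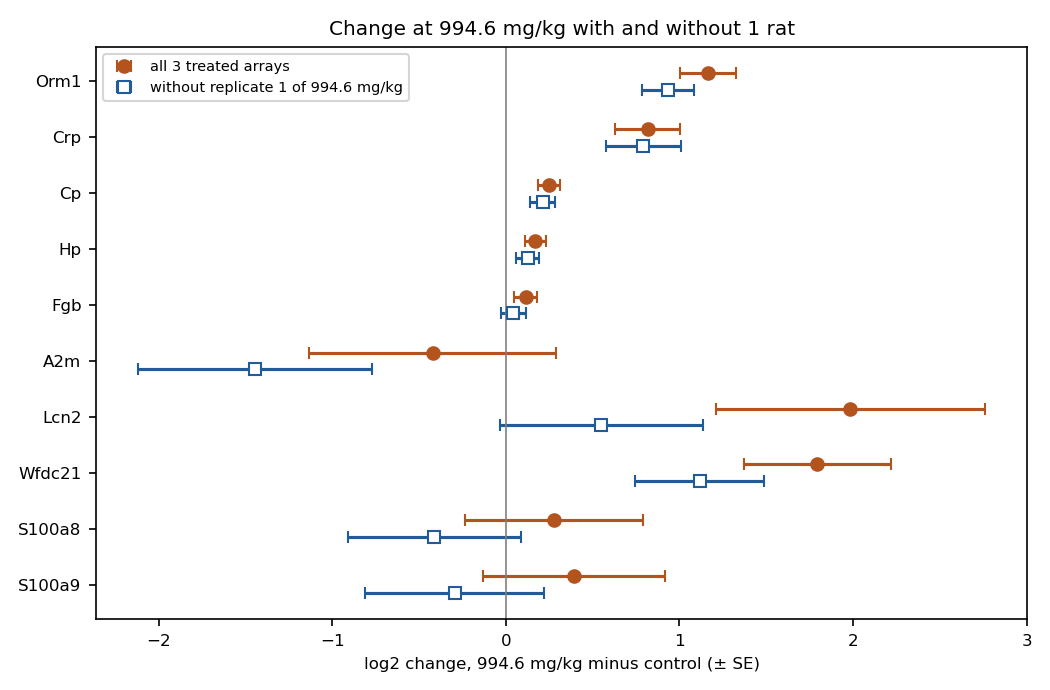
Log2 change of the 10 genes at 994.6 mg/kg minus control with limma's SE as bars, with all 3 treated arrays (filled circles) and without replicate 1 of that dose (open squares). Orm1 (1.17 and 0.93), Crp (0.82 and 0.79), Wfdc21 (1.79 and 1.12) and Cp (0.25 and 0.21) stay above 0 with and without that rat. Of these, Orm1 alone is still called without it. Lcn2 falls to 0.55 without that rat, against 1.98 with it, and S100a8 and S100a9 lie on the other side of 0.

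Replicate 1 of 994.6 mg/kg had the highest value of all 20 arrays in 9 of the 10 members. Over all genes it was the highest array in 2217 of 14217 (15.6%), and over 17 other neutrophil markers in 3 (17.6%), which were the integrin Itgb2, the oxidase subunit Cybb and the interleukin-1 decoy receptor Il1r2. A2m, the exception, was higher in 2 other rats. In this rat the mean over the 6 plasma protein genes lay 0.82 above the control mean, against 0.05 and 0.18 in the other 2 rats of the dose. A2m weighs heavily in these means, as it differed from its control mean by 1.62 in replicate 1 and by -1.005 and -1.88 in replicates 2 and 3. The other plasma protein genes lay above their control means in replicates 2 and 3 as well. There Orm1 lay higher by 0.83 and 1.03, Crp by 0.80 and 0.78, and Cp, Hp and Fgb by 0.01 to 0.21. Over the 4 neutrophil-associated genes the mean lay 2.86 above the control mean in replicate 1, against 0.05 and 0.43 in the others. For 5 red blood cell genes it was -1.71, against -0.72 and -0.79 in the other 2 rats of the dose. The part of this rat's other deviations in the members' values was not tested.

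The rats differed within dose groups, and the members did so in step to different degrees. Each value was set against the mean of its group, and the deviations of each pair of members were correlated over the 20 rats, with p-values from 100000 permutations within groups. Of 45 pairs, 42 correlated positively and 4 had an adjusted p under 0.05 for Pearson's r. S100a8 and S100a9, partners in 1 protein complex, deviated together almost exactly (r = 0.97, permutation p = 1e-05, the smallest these permutations can give, adjusted 0.00045; rho = 0.93, permutation p = 0.00013, adjusted 0.00585). Without the 2 rats whose S100a8 deviations lay farthest from the median r was 0.95, and without replicate 1 of 994.6 mg/kg 0.97. The group means were not computed anew when rats were left out. The remaining rats thus stayed set against means that included the rats left out.

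A2m deviated with both S100 genes. With S100a9 r was 0.85 (permutation p = 0.00087, adjusted 0.0196) and rho 0.85 (permutation p = 0.00102, adjusted 0.0230). Here r was 0.81 without the 2 rats farthest from the median in A2m and 0.81 without replicate 1 of 994.6 mg/kg. With S100a8 r was 0.81 (permutation p = 0.00353, adjusted 0.0397) and rho 0.71 (permutation p = 0.00962, adjusted 0.0754), and r was 0.74 and 0.75 without those rats. Fgb also deviated with S100a8, at r = 0.80 (permutation p = 0.00274, adjusted 0.0397) and rho = 0.73 (permutation p = 0.00194, adjusted 0.0291). For this pair r was 0.68 without the 2 rats farthest from the median in Fgb and 0.74 without replicate 1 of 994.6 mg/kg. No pair with Orm1 or Crp was called. Orm1 and Crp correlated at r = 0.27 (permutation p = 0.176, adjusted 0.289) and rho = 0.47 (permutation p = 0.0223, adjusted 0.112). A2m and Crp correlated at r = -0.18 (permutation p = 0.660, adjusted 0.707) and rho = -0.30 (permutation p = 0.310, adjusted 0.367). All values of a rat come from 1 array, so an array's own deviation is shared by both genes of a pair.

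**Figure D4:**
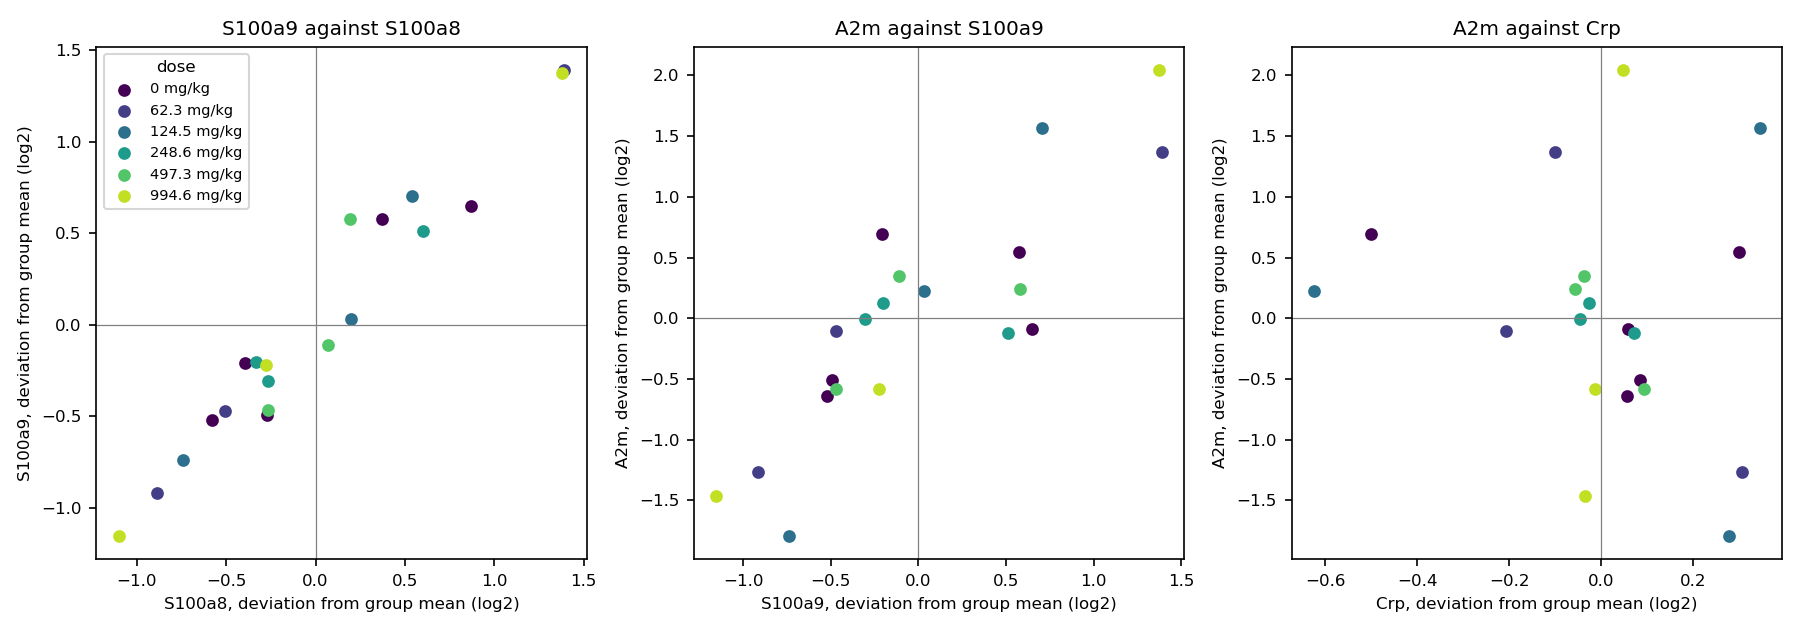
Deviation of each of 20 rats from its group mean (log2), for S100a9 against S100a8, A2m against S100a9 and A2m against Crp, coloured by dose. The points lie along a line for the first pair (r = 0.97), more loosely for the second (r = 0.85), and show no line for the third (r = -0.18).

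Replicate 2 of 62.3 mg/kg, replicate 3 of 124.5 mg/kg and replicate 1 of 994.6 mg/kg held the 3 highest A2m values, at 12.35, 12.25 and 11.92. They also held the highest S100a9 values, at 8.52, 8.18 and 9.04. The interleukin-1 receptor Il1r1, through which interleukin-1 acts, was at its group's highest in the same rats, at 11.30, 11.22 and 12.48, against 9.59 to 9.97 in control. So was Tat, a liver enzyme induced by glucocorticoid, at 11.69, 12.07 and 10.40, against 9.25 to 9.97 in control. Tat also reached 10.64 in replicate 3 of 497.3 mg/kg, whose A2m of 10.40 lay within the control range. In 4 rats A2m lay below all controls. Among them, Tat was above all controls in replicate 1 of 124.5 mg/kg (10.08) and replicate 3 of 994.6 mg/kg (10.06). Tat was within the control range in replicate 1 of 497.3 mg/kg (9.69) and replicate 2 of 994.6 mg/kg (9.92). Il1r1 was 9.96, 10.51, 10.04 and 10.85 in these 4 rats, in the same order. Il1r1 and Tat were set beside A2m after their values were seen, and these are descriptions of single rats.

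By the root mean square difference over the 20 arrays of values centred on the control mean, the non-member genes most like Orm1 were Zdhhc2 (0.242), Mnd1 (0.266), Fndc3b (0.269) and Gtf2b (0.273), and the nearest member was Crp (0.321). Genes with placeholder names beginning with LOC, RGD or AABR were left out of this ranking and of that for S100a8. Zdhhc2 encodes a protein palmitoyltransferase, Mnd1 a meiotic recombination factor and Gtf2b the general transcription factor TFIIB. The median of Zdhhc2 was 6.82 in control, 7.14, 7.24, 7.57 and 7.38 at the next 4 doses and 7.91 at 994.6 mg/kg. Those most like S100a8 were Stfa2l2 (0.353), a gene of the stefin A cysteine protease inhibitors, Lurap1l (0.390), Ube2g2 (0.449) and Acer2 (0.451), all farther from it than S100a9 (0.173). Stfa2l2 was highest at 5.32, 4.55 and 6.18 in the 3 rats with high A2m, against 3.48 to 4.39 in control. Lurap1l was highest at 11.74, 11.55 and 12.07 in them, against 10.07 to 10.80 in control. S100a8 was itself high in these rats, at 6.71, 6.19 and 7.12. Both genes were chosen for being like S100a8 over these same arrays, so their high values there follow from that choice.

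Most other acute phase genes were not called. Of 28 other positive acute phase proteins 23 were measured, and at 994.6 mg/kg limma called 0 higher and 1 lower, with 9 at an unadjusted p under 0.05, a level that 18.6% of all genes reached in this comparison. Their median change was 0.10 and their range -0.84 to 0.94, beside a median of -0.01 over all genes. Without replicate 1 of this dose their median was 0.04. The 1 called was Tfrc, the transferrin receptor, which fell by 0.84 ± 0.20 (adjusted p = 0.0216). Tfrc encodes a receptor of the cell surface and not a secreted plasma protein. Tfrc measured 9.90, 9.50 and 9.88 at 994.6 mg/kg, against 10.27 to 11.08 in control, and without replicate 1 its change was not called (-0.91, adjusted p = 0.0635). Over the dose trend 1 of the list rose, Hpx, the haem binder hemopexin, and 2 fell, Agt and Tfrc. Without replicate 1 of 994.6 mg/kg the trend of Tfrc was still called (adjusted p = 0.00661) and that of Agt was not. Hpx and Agt are named after their values were seen.

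Of 16 negative acute phase proteins, which the liver makes less of during inflammation, 15 were measured, 0 were called higher and 2 lower at 994.6 mg/kg, with 6 at an unadjusted p under 0.05 and a median change of -0.12 (-0.07 without replicate 1). Igf1, the growth hormone-dependent growth factor, fell by 0.30 ± 0.07 (adjusted p = 0.0279), and Igfals, which encodes a subunit of its plasma complex, fell by 0.68 ± 0.18 (adjusted p = 0.0366). Without replicate 1 the changes were -0.26 and -0.54, and neither was called (adjusted p = 0.173 and 0.250). None of this list was called at 497.3 mg/kg by limma, with 3 at an unadjusted p under 0.05, beside 12.2% of all genes.

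Of 28 genes of interleukin-6 and interleukin-1 signalling 26 were measured, with 1 called higher and 0 lower at 994.6 mg/kg, 12 at an unadjusted p under 0.05 and a median of 0.10 (0.05 without replicate 1). Il1r1 rose by 1.51 ± 0.42 (2.86-fold, adjusted p = 0.0464), with a highest value of 12.48, a median of 10.85 and a lowest of 10.51, against 9.59 to 9.97 in control. All 3 rats lay above all controls, and without replicate 1 the change was 0.92 (adjusted p = 0.354). Nfkb1, a subunit of NF-kB, was the 1 gene of the list called at 497.3 mg/kg and rose by 0.61 ± 0.13 (adjusted p = 0.0258). At 994.6 mg/kg Nfkb1 differed by 0.34 ± 0.13 (adjusted p = 0.130).

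Markers of neutrophils other than the members gave a limited view of such cells in the tissue. Many lay below the array medians of 6.31 to 6.41, among them Cxcr2, Mmp8 and Padi4. The highest values of these over the 20 arrays were 4.71, 4.90 and 4.97. Mpo, Elane and Ltf were among the markers not measured. Small differences at such levels do not show whether the number of neutrophils differed. Of 30 markers 17 were measured, limma called 0 at 994.6 mg/kg, and 3 had an unadjusted p under 0.05. The differences of 15 of the 17 were positive at this dose, with a median of 0.10 (0.08 without replicate 1). Their mean lay 0.07 to 0.26 above the control mean at 994.6 mg/kg and 0.14 to 0.39 at 497.3 mg/kg, against -0.03 to 0.04 in control. Itgb2, Cybb and Lyz2 lay above the array medians, at 8.48 to 8.83, 9.40 to 10.03 and 10.71 to 11.13 in control. Whether the signal of these markers came from neutrophils or from other cells of the tissue was not tested. The cytokine gene Il1b measured 7.75 to 8.36 at 994.6 mg/kg, against 7.39 to 7.78 in control. The cathelicidin Camp measured 5.70 to 5.84 at 994.6 mg/kg, against 5.73 to 6.04 in control. The chemokine receptor Cxcr2 measured 4.55 to 4.71 at 994.6 mg/kg, against 4.40 to 4.64 in control. Il1r2 measured 4.23 to 5.61 at 994.6 mg/kg with the 5.61 in replicate 1, against 4.16 to 4.25 in control. The ficolin gene Fcnb was called at 497.3 mg/kg, with a lowest value of 6.06, a median of 6.77 and a highest of 7.37, against 5.70 to 5.96 in control (0.92 ± 0.18, 1.89-fold, adjusted p = 0.0218). At 994.6 mg/kg Fcnb measured 6.01 to 6.18, above all controls, and was not called (0.26 ± 0.18, adjusted p = 0.485). Of the neutrophil markers, all but Fcnb are named after their values were seen. The part of neutrophil number in the values of Lcn2, Wfdc21, S100a8 and S100a9 was not tested.

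Of the other cell types, 0 of 9 macrophage and Kupffer cell markers (median 0.16), 0 of 8 lymphocyte markers (-0.09), 0 of 9 endothelial and stellate cell markers (-0.06) and 0 of 10 hepatocyte markers (-0.15) were called by limma at 994.6 mg/kg, with 0, 0, 0 and 4 at an unadjusted p under 0.05. Without replicate 1 these medians were 0.13, -0.07, -0.13 and -0.10, in the same order. The complement genes C1qb (0.25 ± 0.18) and C1qc (0.23 ± 0.15) had the largest macrophage differences and were not called (adjusted p = 0.485 and 0.449). Of 3 cholangiocyte markers Epcam, an epithelial adhesion molecule, rose by 0.69 ± 0.14 at 994.6 mg/kg (adjusted p = 0.00632) and by 0.86 ± 0.14 at 497.3 mg/kg (adjusted p = 0.00476). It was the 1 marker of this list called at either dose. The 3 markers changed by -0.01 to 0.69 at 994.6 mg/kg, with a median of 0.24 (0.38 without replicate 1). At 497.3 mg/kg they changed by 0.03 to 1.32. Epcam measured 9.71 to 9.97 at 994.6 mg/kg, against 8.997 to 9.35 in control. Lcn2 and Wfdc21 are also made by epithelial cells, and the part of such cells in their values was not tested. Of 5 red blood cell genes 4 fell at 994.6 mg/kg, with a median over the 5 of -1.51, among them Alas2 (-1.63 ± 0.23) and Hbb (-1.54 ± 0.25). Without replicate 1 limma called 3 lower, and Alas2 changed by -1.15 and Hbb, then the median of the 5, by -1.001. The part of blood in the members' values was not tested.

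**Figure D5:**
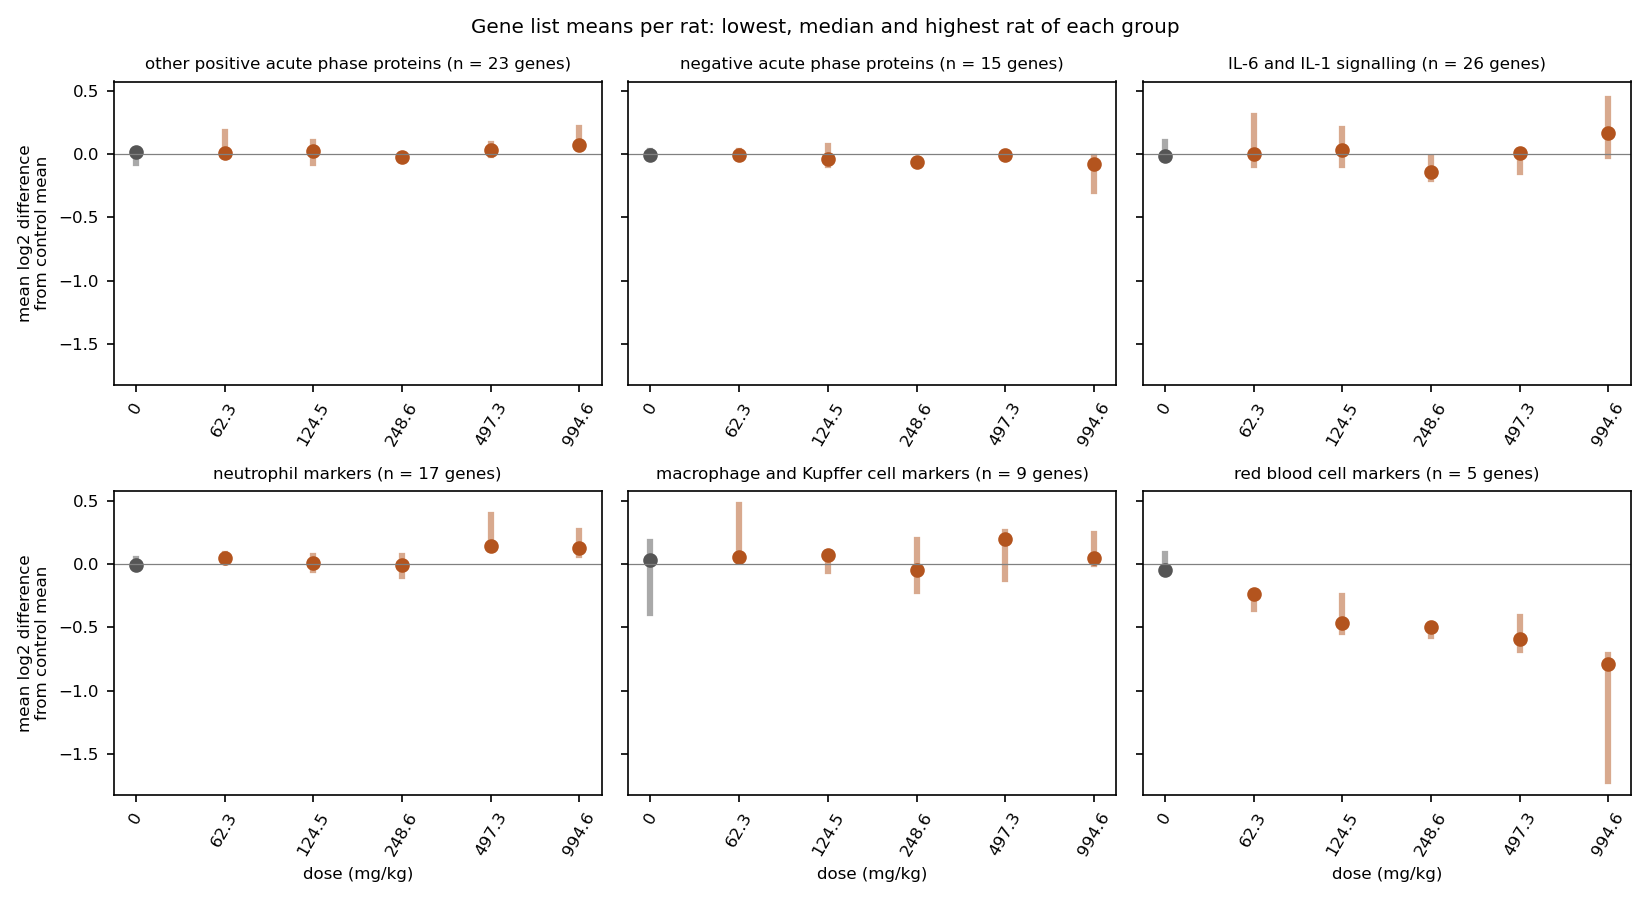
Mean log2 difference from the control mean of 6 gene lists per rat, by dose in mg/kg (control at 0), with the dot at the median rat of a group and the bar from the lowest to the highest rat. At 994.6 mg/kg the other positive acute phase proteins lie at 0.04 to 0.21 and the negative ones at -0.29 to -0.02, the neutrophil markers lie at 0.07 to 0.26, and the red blood cell genes reach -1.71 in 1 rat.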

How the data were processed

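The authors deposited log2 expression values, which the submitters' processing notes credit to RMA without a version. RMA subtracts background, quantile-normalizes the arrays and combines a probe set's probes, so changes are relative to the mass of genes. Nothing in the sources used here says which arrays were normalized jointly. Array medians ran from 6.31 to 6.41, and the number of arrays limits the precision. The labels list a separate rat for each array, so the spread includes differences between animals.

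Of 31099 probe sets 57 were controls, 20826 had 1 gene symbol, 436 had several symbols and 9780 had none in the table used. RefSeq identifiers served to update symbols. Where a gene had several probe sets, that of highest overall mean stood for it, with no filter on low values, which gave 14217 genes. One model, with a mean per group, was fitted across the 20 arrays in limma 3.58.1 (R 4.3.3, default eBayes), leaving 14 residual and 4.77 prior degrees of freedom. Adjusted p-values are limma's, by Benjamini-Hochberg within a comparison over all genes, or over all probe sets where stated. The fit was tested on simulated data. Correlations and figures used Python 3.11.15 and numpy 2.4.6. The correlations between members were added after the data were seen.

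The members and gene lists were chosen with earlier results of these data known. Named genes are the members, the 4 genes most like Orm1 and most like S100a8, and from each list up to 4 called genes, or where there were none, the 2 that differed most. Others are said in the text to have been chosen after their values were seen. Alternatives changed the probe set rule, filter, normalization, eBayes options, array weights, groups fitted, replicate block, GAPDH covariate, fold limit, dose scale and the array left out. Replicate numbers come from the sample titles.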

Additional observations from a re-analysis of the deposited data

How the results depend on the processing

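The 4 members called at 994.6 mg/kg became 5 with array weights, 5 with trend and robust eBayes, 3 with probe sets averaged per gene, 3 with only these groups fitted, 3 with the 1.5-fold limit, 2 with a replicate block (which drops control replicates 4 and 5), 2 with the GAPDH covariate, and 1 to 4 with single arrays left out, the 1 being without replicate 1 of that dose. The 1 member called at 497.3 mg/kg became 2 with array weights, 2 with only these groups fitted, 0 with the replicate block, 0 with the covariate, and 0 to 1 with arrays left out. The 3 members with a called trend became 5 without the lowest 50% of genes, 5 after renewed quantile normalization and 5 on a linear dose scale. They became 2 with the GAPDH covariate, which ended the call of Crp, 2 with the replicate block, and 2 to 4 with arrays left out. At 248.6, 124.5 and 62.3 mg/kg and between the highest doses, 0 members were called in every alternative run. The replicate block ended the calls of Cp (adjusted p = 0.0911) and Wfdc21 (1.92, adjusted p = 0.0716) at 994.6 mg/kg, of Orm1 at 497.3 mg/kg (0.66, adjusted p = 0.130) and of the Cp trend (adjusted p = 0.0516), and changed no other member's call. Same-numbered rats of different groups deviated together at r between -0.38 and 0.37 (45 pairs), so the numbers were not taken to pair the rats. Over all genes, 635 were called at 994.6 mg/kg, against 310 with the block, 450 with the covariate, 1000 after quantile normalization and 2841 with array weights. At 497.3 mg/kg the 104 genes became 38 with the block, 281 with array weights and 235 with only these groups fitted. The 8 genes at 248.6 mg/kg became 20 with array weights, 4 with the covariate and 3 with only these groups fitted, the 3 between the highest doses 122 with array weights, and the 920 of the trend 592 without replicate 1 of 994.6 mg/kg. No called value changed its sign in any alternative. The causes were not tested. Groups of 3 rats limit what could be seen: the SE of a change was 0.71 for A2m and 0.77 for Lcn2, so a difference of 1 on the log2 scale was under 2 SE for both.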
